A study of Mus musculus with 12 samples.

Results

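Nuclear genes of respiratory complexes II to V were compared between unstimulated CD8 T cells carrying the scurfy mutation of Foxp3 and unstimulated wild-type CD8 T cells. The genes were taken by symbol, as all rows beginning with Cox and a digit, Uqcr or Atp5, together with Cyc1, Cycs and Sdha to Sdhd, leaving out rows named as pseudogenes. The rule found 53 of the 11581 genes of the deposited table: 4 of complex II, 9 of complex III, 1 for cytochrome c, 22 of complex IV and 17 of complex V. The 22 include 9 assembly factors and 1 supercomplex factor of complex IV, and the 17 include Atp5s and Atp5sl. All of these share the symbol but are not subunits. Atp5sl, which RefSeq names Dmac2, was counted with complex V by its symbol alone. A gene without a row, such as the tissue-restricted forms Cox6a2, Cox8b and Cox4i2, was not analysed here.

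The respiratory chain of the inner mitochondrial membrane passes electrons from complexes I and II through ubiquinone to complex III, from there through cytochrome c to complex IV, and so to oxygen. The proton gradient it builds drives complex V, the ATP synthase. Complexes III, IV and V join a few subunits encoded in the mitochondrial genome to a larger number encoded in the nucleus, while complex II is wholly nuclear. In T cells, resting and memory cells depend largely on this pathway for ATP, and its subunits are made in larger amounts when cells are activated and grow.

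The cells were purified CD8 T cells from bone marrow chimeras in CD45.2+ C57BL/6 J mice, collected 2 months after reconstitution. Hosts of the scurfy group received CD45.1+/2+ marrow of the genotype OT-1 Foxp3Scurfy, mixed with CD45.2+ marrow. In the wild-type group the CD45.1+/2+ marrow was OT-1 Foxp3wt, again with CD45.2+ marrow beside it. OT-1 cells carry a transgenic T cell receptor for the SIINFEKL peptide of ovalbumin in every group, and scurfy is a mutation that abolishes Foxp3 function. CD45.2+ cells of the host and of the second donor were thus present in both groups, and the labels do not say how OT-1 CD8 T cells were separated from them. Each group had 3 libraries. No label ties a library to its own mouse, so the p-values rest on a spread among libraries that could be purely technical. The libraries given peptide for 6 h were not analysed here.

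The libraries held 8852518 to 23149523 reads over the table, and 3 reads were worth 1.45 to 3.99 normalized counts. The table has no row for Foxp3, which leaves the genotype labels without a check on that gene. All 6 CD8 T cell markers had rows, with summed levels of 58851 to 65039 normalized counts in scurfy and 53665 to 54746 in wild-type libraries. The 6 did not move alike. Group means in scurfy and wild type were 11635 and 6837 for Cd3d, 5486 and 3937 for Cd3g, and 2850 and 2368 for Cd3e. They were 7840 and 7231 for Cd8a, 21566 and 21498 for Cd8b1, and 11636 and 12413 for Lck. Of 8 B cell markers 5 had rows and summed to 157 to 173 in scurfy and 290 to 355 in wild type, with Ms4a1 and Cd79a among those without a row. Of the 5, Cd79b overlapped between the groups (132 to 142 and 132 to 218). The other 4, Cd74, H2-Aa, H2-Ab1 and H2-Eb1, were lower in scurfy without overlap. Of the myeloid list only Cst3 (1 of 6; 1406 to 1523 in scurfy and 821 to 1131 in wild type) and of the erythroid list only Car2 (1 of 4; 101 to 156 and 232 to 315) had rows, and of the CD4 T cell and natural killer cell lists none had. The summed levels differed between the groups, and their part in the results was not tested. In bulk RNA, fewer cells of a type and less RNA per cell cannot be told apart.

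Of the 53 genes, 13 rose in scurfy cells, none fell and 40 did not pass an adjusted p of 0.05 in limma, a linear model fitted to log2(value + 1) over all genes with Benjamini-Hochberg adjustment. Over all genes 2.12% rose and 2.35% fell by the same rule. Unadjusted, 21 of the 53 had a p under 0.05, against 2456 (21.2%) of all genes. All 3 scurfy libraries lay above all 3 wild-type libraries for 20 genes, against 13.4% of the table, and below them for 2 genes, against 13.7%. The median log2 fold change, scurfy minus wild type, was 0.17 over the 53 genes and 0.01 over all genes. Fold changes of the 13 ran from 1.34-fold for Uqcrc1 to 2.78-fold for Cox7b, and 9 of them were at least 1.8-fold. Of the 40 others, 38 had a log2 fold change smaller than 0.5 in either direction.

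**Figure D1:**
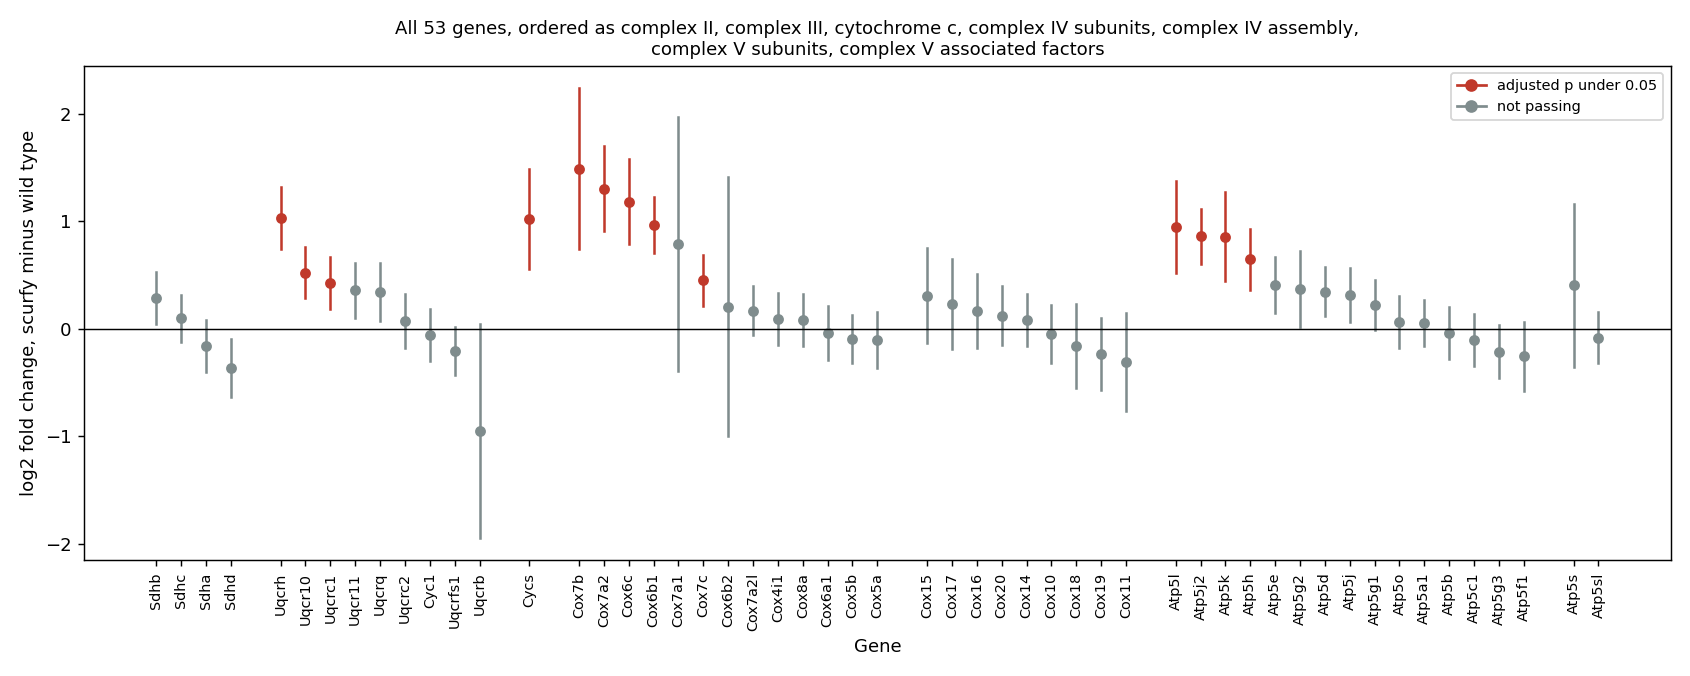
Log2 fold change of each of the 53 genes, scurfy minus wild type on the log2(value + 1) scale, with bars for the 95% confidence interval from limma. The supercomplex factor Cox7a2l stands with the complex IV subunits. Red marks the 13 genes with an adjusted p under 0.05, all of them above 0, and the widest bars belong to Cox6b2, Cox7a1, Uqcrb, Atp5s and Cox7b.

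The genes that rose were mainly the small accessory subunits. These are short proteins without a redox centre or catalytic site that surround the cores of complexes III and IV, or that sit in the membrane part of ATP synthase where its dimers meet. Of the 20 such genes (5 of complex III, 12 of complex IV and 3 of complex V) 10 rose, with a median log2 fold change of 0.49. Of the other 20 subunits of complexes II to V, 2 rose, Uqcrc1 and Atp5h, with a median of 0.07. None of the 11 assembly and associated factors, Atp5s and Atp5sl among them, rose or fell, and their median was 0.08. The difference between these groups of genes was not tested, and the grouping was made with earlier results of these data known. Transcripts of the accessory subunits are also shorter, with a median annotated length of 542 bases against 1297 for the other subunits and 1468 for the factors. Of all genes 2.12% rose, and of all genes under 1000 transcript bases 8.45%. With a smooth trend on transcript length taken out of each library, 5 of the 20 accessory subunits rose, with a median of 0.11. Of the other 20 subunits none then rose and 1 fell, with a median of 0.02. None of the 11 factors then passed, and their median was -0.10.

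Length moved with the result, and its part in it was not tested beyond the corrections given here. Among all 1858 genes with a median annotated transcript under 1000 bases, 157 (8.45%) rose and the median log2 fold change was 0.26. Among the 30 respiratory genes under 1000 bases, 10 (33.3%) rose with a median of 0.34. Among the 23 longer ones 3 (13%) rose with a median of 0.05, against 0.916% and a median of -0.03 among all genes of that length. Of these 3, Cox7b lay just over the cut at 1001 bases, and Cox7b and Uqcrc1 each had an adjusted p of 0.0478 in limma. The 23 were shorter than all genes of that length, with a median of 1653 against 2766 bases.  When a smooth trend on transcript length was taken out of each library, 6 of the 53 genes rose, 1 fell (0.899% and 1.37% of all genes) and the median was 0.00. Of the 23 longer genes only Cycs was then higher. With the trend on total exonic length taken out instead, 8 rose, 1 fell (1.14% and 1.49% of all genes) and the median was 0.05. Spearman's correlation of length with log2 fold change was -0.37 over the 53 genes and -0.25 over 11571 genes, a description across genes that are not independent and share the same 6 libraries.

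**Figure D2:**
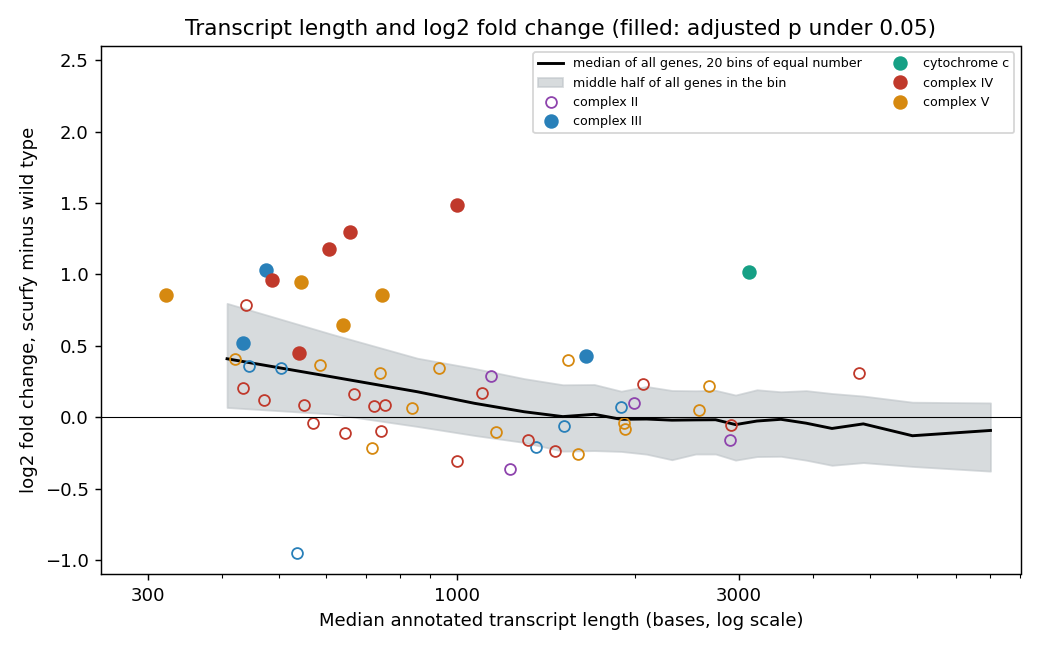
Median annotated transcript length in bases (log axis) against log2 fold change, scurfy minus wild type. The black line is the median of all genes in 20 bins of equal number and the grey band spans their quartiles. Points are the 53 respiratory genes, filled where the adjusted p was under 0.05. The line falls from 0.41 in the shortest bin to -0.09 in the longest, and Cycs, at 3123 bases, lies far above it.

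Promoters of genes of this pathway are known for binding sites of NRF1, of Ets factors such as GABP, and of YY1, so the windows of genes that rose together are shown here. RefSeq (GRCm38.p6) gave 48 promoter windows for 43 of the 53 genes, each from 250 bases before to 50 bases after the annotated start. The letters GCGCANGCG for NRF1 lay on either strand in 13 of the 48 windows (27.1%), in 14.5% of windows of genes in the table and in 6.25% of all windows. CCGGAAG for Ets factors lay in 18 (37.5%), against 19.8% and 8.86%, and ATGGCGGC for YY1 in 4 (8.33%), against 5.4% and 2.24%. The YY1 letters hold a start codon followed by alanine codons, so they can also be coding sequence. At least 1 of the 3 motifs lay in the windows of 7 of the 12 genes that rose and had a window, and of 18 of the 31 others. A match describes letters, not a bound site.

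For 5 genes that rose, the stretch from 100 bases before the start to 20 bases from it is given 5′ to 3′ on the gene's strand, with matches to the NRF1 or Ets letters, on either strand, in capitals. The 5 were not picked by a stated rule. Uqcr10, Cox7b, Cox7c and Atp5j2 also rose, held none of the 3 motifs in their windows and are not shown.
Uqcrh, chr4:116075051-116075170, minus strand: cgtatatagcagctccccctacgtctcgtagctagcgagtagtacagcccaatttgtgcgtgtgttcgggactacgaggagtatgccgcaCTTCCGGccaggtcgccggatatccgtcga
Cox6b1, chr7:30626095-30626214, minus strand: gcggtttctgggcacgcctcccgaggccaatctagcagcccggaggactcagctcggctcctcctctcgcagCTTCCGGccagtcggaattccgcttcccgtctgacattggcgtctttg
Atp5k, chr5:108434380-108434499, minus strand: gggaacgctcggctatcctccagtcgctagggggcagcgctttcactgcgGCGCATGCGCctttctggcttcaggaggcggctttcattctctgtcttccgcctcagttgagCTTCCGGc
Cycs, chr6:50566550-50566669, minus strand: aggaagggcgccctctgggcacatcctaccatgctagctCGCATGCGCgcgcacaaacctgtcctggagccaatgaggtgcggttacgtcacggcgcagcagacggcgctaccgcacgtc
Cox7a2, chr9:79759834-79759953, minus strand: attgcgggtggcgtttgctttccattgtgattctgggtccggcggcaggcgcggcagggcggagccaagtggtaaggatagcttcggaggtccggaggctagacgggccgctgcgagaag
The Ets letters began 10 bases before the start in Uqcrh and 28 before it in Cox6b1. Atp5k held an NRF1 match on both strands, from 50 and 49 bases before the start, and an Ets match 12 bases after it. Cycs held an NRF1 match 61 bases before the start, and Cox7a2 held none of the 3 motifs in its whole window. The 20 bases from the start occurred in a GENCODE transcript of the gene for Uqcrh, Cox6b1, Atp5k and Cox7a2. For Cycs they did not, so its offset rests on the RefSeq start alone.

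Complex II, succinate dehydrogenase, links the TCA cycle to the chain, and none of its 4 genes passed. Sdhd, a membrane anchor that helps bind haem and ubiquinone, had the smallest p of the 4. It was at 1236, 1114 and 902 normalized counts (scurfy 1 to 3) and 1404, 1328 and 1425 (wild type 1 to 3; log2 fold change -0.37, adjusted p = 0.111 in limma). The groups did not overlap, scurfy being the lower one. The iron-sulfur subunit Sdhb went the other way at 0.28 (adjusted p = 0.164), also without overlap. The flavoprotein Sdha, which oxidises succinate, was at -0.16 (95% confidence interval -0.40 to 0.08) and the other anchor Sdhc at 0.10 (-0.12 to 0.31), with overlapping groups. Sdhd passed, as lower, with the exonic length trend removed (-0.53, adjusted p = 0.0373) and on library size alone (adjusted p = 0.0319). It did not pass with the transcript length trend removed (-0.44, adjusted p = 0.0686), and in the remaining alternatives its adjusted p was 0.0706 to 0.277.

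Complex III takes electrons from ubiquinol to cytochrome c, and 3 of its 9 genes rose, against 2.12% of all genes. With the transcript length trend removed, 1 of the 9 was higher. Uqcrh (ENSMUSG00000063882, chromosome 4), the acidic hinge protein at the docking site of cytochrome c, was at 7839, 7852 and 9198 normalized counts (scurfy 1 to 3) and 4436, 4693 and 3199 (wild type 1 to 3). Every scurfy library was well above every wild-type one. The rise was 2.02-fold (8296 ± 781 against 4109 ± 799, SD, n = 3 each), with a log2 fold change of 1.03, SE 0.14 and adjusted p = 0.0023 in limma. Uqcr10 (chromosome 11), a small membrane subunit, was at 2293, 2514 and 2889 in scurfy and 1822, 1676 and 1845 in wild type. It did not overlap between groups and rose 1.44-fold (adjusted p = 0.0201). Uqcrc1 (chromosome 9), one of the pair of large core proteins, was at 1156, 1109 and 1011 against 827, 821 and 789. The groups lay close together but apart, and the rise of 1.34-fold stood just under the threshold (adjusted p = 0.0478).

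The parts of complex III that carry its redox centres did not pass. Cyc1, cytochrome c1, was at -0.06 (95% confidence interval -0.30 to 0.18) and Uqcrfs1, the Rieske iron-sulfur protein, at -0.21 (-0.43 to 0.015). The other core protein, Uqcrc2, was at 0.07. The small subunits Uqcr11 (0.35, adjusted p = 0.0991) and Uqcrq (0.34, adjusted p = 0.136) did not pass, though their groups did not overlap. Uqcrb, another small subunit, was at 15.9 to 23.0 normalized counts in scurfy and 22.7 to 63.8 in wild type, with overlapping groups. Its log2 fold change of -0.95 was the lowest of the 53 and its interval ran from -1.94 to 0.05. Uqcrb has 3 annotated pseudogenes that align to its transcript over at least 100 bases at 95% identity or more, and the labels and notes do not state how reads matching several places were counted.

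Cycs (ENSMUSG00000063694, chromosome 6) encodes the somatic form of cytochrome c, which carries electrons between complexes III and IV and, when released into the cytosol, triggers apoptosis. It was at 533, 575 and 512 normalized counts (scurfy 1 to 3) and 318, 343 and 173 (wild type 1 to 3). The scurfy libraries lay close together, and wild-type library 3 was well below the other wild-type ones. The rise was 1.94-fold (540 ± 32.1 against 278 ± 91.8, SD, n = 3 each, log2 fold change 1.02, adjusted p = 0.0202 in limma). With either length trend removed Cycs kept its call, at 1.07 (adjusted p = 0.0257) for transcript length and 1.02 (0.031) for exonic length. It has 3 near-identical pseudogenes, so its count is uncertain.

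Complex IV, cytochrome c oxidase, holds its catalytic core in mitochondrially encoded subunits, around which nuclear subunits are arranged. Of its 12 nuclear supernumerary subunits 5 rose, against 2.12% of all genes and 8.45% of all genes under 1000 transcript bases. The median transcript length of the 12 was 588.5 bases. With the transcript length trend removed, 3 of the 12 were higher and their median log2 fold change was -0.01. Cox6b1 (ENSMUSG00000036751, chromosome 7), on the intermembrane side where the dimer forms, was at 4833, 5319 and 6335 normalized counts (scurfy 1 to 3) and 2947, 3067 and 2443 (wild type 1 to 3). Every scurfy library lay well above every wild-type one. It rose 1.95-fold (5495 ± 767 against 2819 ± 331, SD, n = 3 each, log2 fold change 0.96, SE 0.12), with the smallest adjusted p of the 53, 0.00188 in limma.

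Cox7a2 (ENSMUSG00000032330, chromosome 9), the ubiquitous form of subunit VIIa, was at 1736, 2225 and 2813 in scurfy and 950, 1097 and 698 in wild type. It rose 2.47-fold (log2 fold change 1.30, SE 0.18, adjusted p = 0.004 in limma), and library 3 was the extreme of both groups. Cox6c (chromosome 15), a single-span membrane subunit, was at 1939, 2045 and 3397 against 930, 1194 and 1041. It rose 2.33-fold (log2 fold change 1.18, SE 0.18, adjusted p = 0.00632), with scurfy library 3 far above the other scurfy ones. Cox7b (chromosome X), needed for assembly of the complex, was at 1953, 2230 and 3638 against 1154, 1083 and 575. This was the largest fold of the 53, 2.78, but also a wide one, with a log2 fold change of 1.49, SE 0.32 and adjusted p = 0.0478. Cox7c (chromosome 13) was at 1517, 1571 and 1681 against 1207, 1240 and 1052, without overlap, and rose 1.36-fold (adjusted p = 0.0349).

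The remaining subunits of complex IV did not pass. Cox4i1, the largest nuclear subunit, was at 15126 to 15581 normalized counts in scurfy and 12828 to 16479 in wild type (log2 fold change 0.09, 95% confidence interval -0.16 to 0.33). Cox6a1, the ubiquitous form of subunit VIa, was at -0.04 (-0.29 to 0.21), Cox5a at -0.11, Cox5b at -0.10 and Cox8a at 0.08, all with overlapping groups. Within 1 enzyme, then, some subunits passed and others did not, and the difference between them was not tested.

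The relatives of Cox7a2 did not pass. Cox7a1, the form known from muscle, was at 20.1 to 28.1 normalized counts in scurfy and 6.28 to 21.3 in wild type, which overlapped, and its log2 fold change of 0.79 did not pass (adjusted p = 0.439). Cox7a2l, a related protein that links complexes III and IV in supercomplexes, was at 2625 to 3075 in scurfy and 2389 to 2722 in wild type (0.17, adjusted p = 0.395). The testis form Cox6b2 was at 11.0 to 28.4 against 10.6 to 22.2, with a log2 fold change of 0.20 (adjusted p = 0.873). None of the 9 assembly factors of complex IV passed. They ran from Cox11, which delivers copper, at -0.31 to Cox15, which makes haem A, at 0.31, and every one of the 9 overlapped between groups.

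Complex V makes ATP with a catalytic head (F1) turned by a ring in the membrane. Of the 17 genes counted under it by symbol, 4 rose, against 2.12% of all genes. Among them were all 3 of the small subunits e, f and g of the membrane part. These help the enzyme form dimers at the edges of cristae. With the transcript length trend removed, 1 of the 3 was higher, and their median log2 fold change was 0.61. Atp5j2 (ENSMUSG00000038690, chromosome 5), subunit f, was at 4882, 5016 and 6630 normalized counts (scurfy 1 to 3) and 3068, 3066 and 2901 (wild type 1 to 3). The wild-type libraries were close together and all scurfy ones were clearly above them. It rose 1.83-fold (5510 ± 973 against 3012 ± 95.6, SD, n = 3 each, log2 fold change 0.86, SE 0.12, adjusted p = 0.00283 in limma).

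Atp5k (chromosome 5), subunit e, was at 1958, 1904 and 3477 in scurfy and 1277, 1394 and 1227 in wild type, a rise of 1.88-fold (adjusted p = 0.0278). Atp5l (chromosome 9), subunit g, was at 909, 859 and 1286 against 556, 665 and 380, a rise of 1.91-fold (adjusted p = 0.0196). In both genes scurfy library 3 was the highest and wild-type library 3 the lowest. Atp5l has 9 near-identical pseudogenes, so its count is uncertain. Atp5h (chromosome 11), subunit d of the peripheral stalk that holds the head still, was at 4581, 4971 and 6868 against 3499, 3613 and 3250. It rose 1.58-fold (adjusted p = 0.0184) without overlap.

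**Figure D3:**
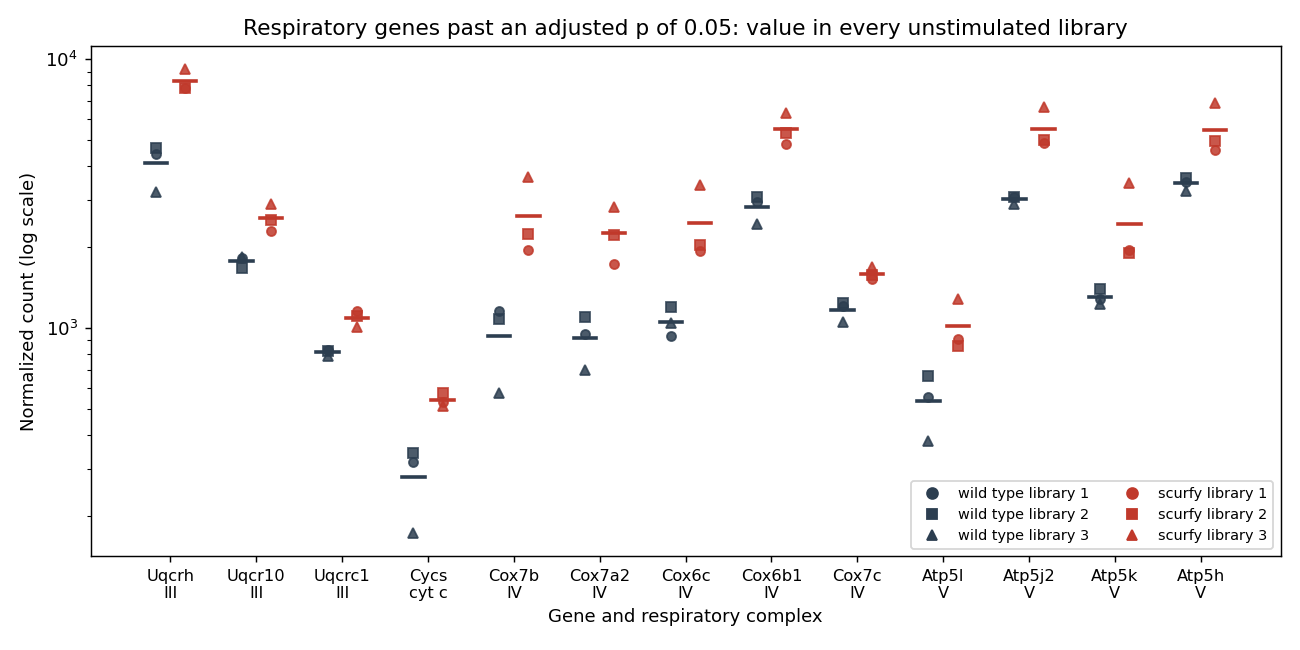
Normalized count (log axis) of the 13 genes with an adjusted p under 0.05 in each of the 6 unstimulated libraries, with horizontal lines at the group means. The groups do not overlap for any of the 13, and triangles, library 3 of each group, are the highest or the lowest point for most genes.

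Neither subunit of the head passed. Atp5a1 was at 0.05 (95% confidence interval -0.17 to 0.27) and the catalytic Atp5b at -0.04 (-0.28 to 0.20). In the central stalk, which turns inside the head, Atp5e was at 0.41 (adjusted p = 0.0749) and Atp5d at 0.34 (0.0836), neither overlapping between groups, and Atp5c1 was at -0.11. In the peripheral stalk, Atp5j was at 0.31, Atp5o at 0.06 and Atp5f1 at -0.26, the lowest of the complex. Subunit c of the ring has 3 genes that encode the same mature protein behind different import sequences. Atp5g1 was at 1349, 1454 and 1293 normalized counts in scurfy and 1252, 1130 and 1134 in wild type (0.22, adjusted p = 0.263). Atp5g2 was at 360, 290 and 307 against 258, 253 and 230 (0.36, adjusted p = 0.224), and Atp5g3 at 9950, 10690 and 8205 against 11632, 10775 and 10885 (-0.21, adjusted p = 0.306). None of the 3 overlapped between groups, with Atp5g1 and Atp5g2 on the higher side in scurfy and Atp5g3 on the lower. Atp5g3 passed, as lower, in 1 alternative, with the transcript length trend removed (-0.46, adjusted p = 0.0472). With the exonic length trend removed it did not (-0.26, adjusted p = 0.196), and in the others its adjusted p was 0.074 to 0.622. Atp5s and Atp5sl, which are not subunits and were counted here by symbol, did not pass.

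The calls differed in how far they rested on single libraries. Scurfy library 3 was the highest of the 6 for 11 of the 13 genes that rose, and wild-type library 3 the lowest for 11. Uqcrh, Cox6b1, Cox6c, Cox7a2 and Atp5j2 passed in each fit without 1 of the 6 libraries, with adjusted p of at most 0.0368, and also under every other scaling, filter, test and length correction tried. Leaving out wild-type libraries 1, 2 and 3 in turn gave counts of 9, 8 and 6 in place of 13, and leaving out scurfy libraries 1, 2 and 3 gave 11, 8 and 8. Over all genes the count of higher calls fell as well, from 246 to 161, 137 and 76 and to 180, 98 and 132 in the same order. The 9 include Atp5e, which passed only there (adjusted p = 0.031) and in DESeq2. Atp5h lost its call only without wild-type library 3 (adjusted p = 0.0712), and Cycs only without that library (0.0513) or scurfy library 2 (0.0681). Atp5k lost it in each fit that left out a wild-type library (up to 0.107), and Atp5l without wild-type library 1 or 3 or scurfy library 3 (up to 0.0655). Uqcr10 lost it without wild-type library 2 or 3 or scurfy library 2 or 3 (up to 0.0749). Cox7b lost it without wild-type library 1 or 2 or scurfy library 2 or 3 (up to 0.0935), and Cox7c and Uqcrc1 in all 6 such fits (up to 0.12 and 0.14).

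With the transcript length trend removed, Uqcrh was at 0.65 (adjusted p = 0.0143), Cox6b1 at 0.59 (0.0157), Cox6c at 0.88 (0.0279), Cox7a2 at 1.03 (0.00994) and Atp5j2 at 0.63 (0.0199). These 5 and Cycs were the 6 that remained. Uqcr10 was then at 0.12 (adjusted p = 0.591) and Cox7c at 0.11 (0.585), the lowest of the 13. Atp5k was at 0.38 (0.222), Atp5h at 0.36 (0.13), Atp5l at 0.61 (0.0814), Cox7b at 1.35 (0.0727) and Uqcrc1 at 0.42 (0.0632). Shares of all reads, summed over genes, do not use the authors' size factors and are on another scale than the fold changes above. Scaled by library size alone, the median log2 fold change was -0.13 over all genes and 0.03 over the 53. The 53 genes took 1.21% ± 0.0247 of all reads in scurfy and 1.13% ± 0.0107 in wild-type libraries (SD, n = 3 each). Complex III took 0.195% ± 0.00721 against 0.162% ± 0.00682, and complex II 0.0627% ± 0.00374 against 0.0673% ± 0.00342. Complex IV took 0.465% ± 0.0101 against 0.437% ± 0.0154, and complex V 0.485% ± 0.0132 against 0.464% ± 0.00175. For complex IV, scurfy library 1 (0.4538%) lay next to wild-type library 1 (0.4537%).

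**Figure D4:**
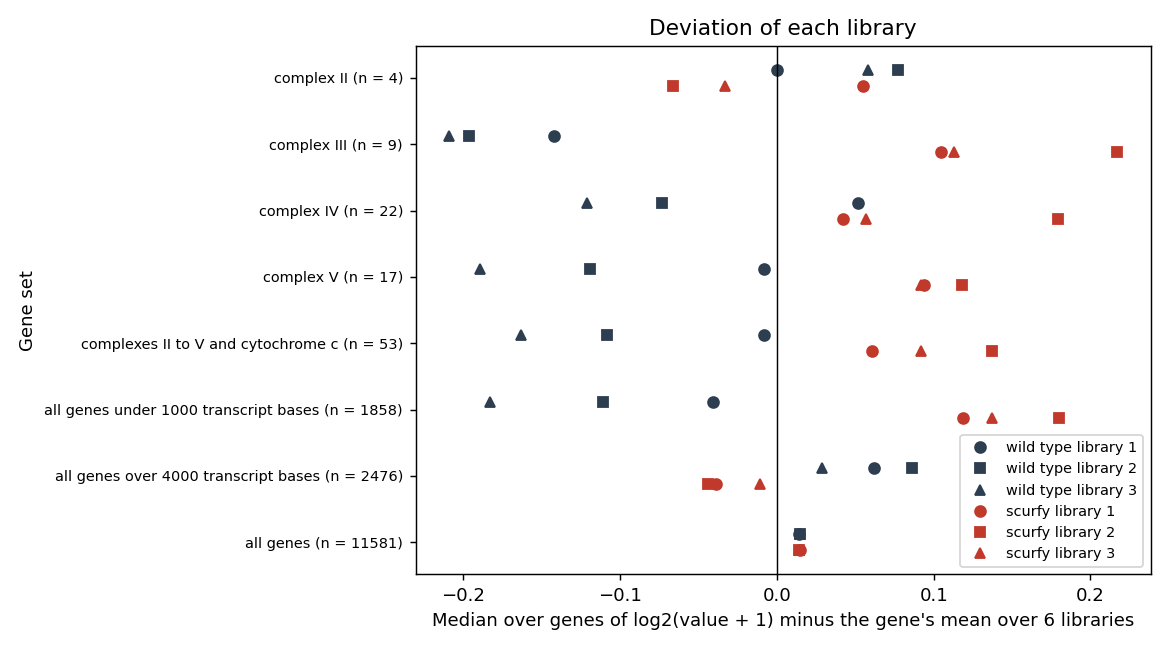
Median over the genes of a set of log2(value + 1) minus each gene's mean over the 6 libraries, 1 point per library, for complexes II to V, all 53 genes, short genes, long genes and all genes. For complex III the scurfy libraries lie at 0.10 to 0.22 and the wild-type libraries at -0.21 to -0.14, for complex II the groups overlap, and all genes under 1000 bases are split the same way as the 53 genes.

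Library by library, the median deviation of the 53 genes from their own means was 0.06, 0.14 and 0.09 for scurfy 1 to 3, and -0.01, -0.11 and -0.16 for wild type 1 to 3. All genes under 1000 bases gave 0.12, 0.18 and 0.14 against -0.04, -0.11 and -0.18. Complex II, at 0.05, -0.07 and -0.03 against 0.00, 0.08 and 0.06, overlapped between the groups, as did complex IV.

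Partners of these genes in the pathway were read from lists as well. For comparison with each list, 2.12% of all genes rose and 2.35% fell. Of 29 assembly factors of complexes II to V not taken by the rule 26 had rows. Of these, 2 (7.69%) rose and none fell, with a median log2 fold change of 0.11. The 2 were Pet100 (0.87, adjusted p = 0.0145), which joins Cox subunits during assembly of complex IV, and Coa3 (0.64, adjusted p = 0.0163), which stabilises newly made core subunit. Pet100 lost its call without 1 library (adjusted p = 0.0618) and Coa3 in 4 such fits (up to 0.0602). None of 4 further genes not taken by the rule passed, with a median log2 fold change of 0.51. They were Ndufa4 of complex IV, and Usmg5, 2010107E04Rik and Atpif1 of complex V, the last an inhibitor and not a subunit. Ndufa4 was closest (0.65, adjusted p = 0.152), and Usmg5 was at 1.27 (adjusted p = 0.172), without overlap between groups. Of 12 regulators of respiratory genes 11 had rows, and only Esrra, a nuclear receptor that drives mitochondrial genes, passed. It fell by 0.68 on the log2 scale, from 545 to 342 normalized counts on average (adjusted p = 0.0267), and lost its call in 5 of these fits (up to 0.0958). Of the factors whose motifs were searched, Nrf1 was at -0.07, Gabpa at -0.21 and Yy1 at -0.22, none of which passed. Of the 6 mitochondrially encoded subunits of complexes III to V only mt-Co1 (0.52, adjusted p = 0.602) and mt-Cytb (-0.17, adjusted p = 0.606) had rows. Complex I, the NADH dehydrogenase, was taken by symbol as 37 nuclear genes, which include the Ndufa4 named above for complex IV. Of the 37, 5 (13.5%) rose, none fell and the median was 0.34. Their median transcript length was 782 bases, and of all genes under 1000 bases 8.45% rose. The 4 with the smallest p were Ndufa3 (0.82, adjusted p = 0.00324), Ndufs4 (0.89, 0.0148), Ndufa5 (0.91, 0.0166) and Ndufb3 (0.66, 0.0217). With the transcript length trend removed 1 of the 37 was higher (0.899% of all genes), and with the exonic one 2 were (1.14%). Ndufa3 passed in all 6 fits that left out 1 library, while Ndufs4 and Ndufb3 each lost the call in 2 such fits (up to 0.0553 and 0.0741) and Ndufa5 in 4 (up to 0.0622).

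The authors' deposited table, tested with another model, gives an adjusted p under 0.05 to 15 of the 53 genes, all higher and none lower, against 4.15% higher and 4.76% lower of the genes that have an adjusted p there. They are the 13 genes above with Atp5d and Atp5e. On the reads recovered from the values, edgeR's quasi-likelihood test gave 12 higher (2.15% of all genes higher and 2.69% lower) and voom 13 (2.3% and 2.47%). DESeq2 on these reads gave the same 15 genes as the authors' table, with nearly the same adjusted p (Cox6b1 1.16e-09 in both). It repeats the deposited result and is not a second check. With TMM factors 13 rose (2.06% and 2.43%). Scaling by library size alone moved the median of all genes to -0.13, and 10 of the 53 then rose and 1 fell, against 1.45% and 6.57% of all genes.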

How the data were processed

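Messenger RNA of purified CD8 T cells was sequenced. By the labels' protocols, cDNA was primed with indexed poly-dT oligos, amplified by in vitro transcription and fragmented, so reads lie near the 3′ end. Trim Galore 0.4.4, STAR 2.6, featureCounts and build NCBIM37 are named per the submitters' processing notes, with edgeR and DESeq2 in no stated role, and no strand setting is stated. The deposited value of a gene is a signal (a normalized count): reads over a size factor set for each library by the authors. Nonzero values were whole multiples of 1 read within 0.01 read. That deposited table further holds, per the file headers, the authors' mean signal, log2 fold change with standard error, a test score and the p-value before and after adjustment. The table named for stimulated cells is identical and was not used.

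limma 3.58.1 (R 4.3.3) was run on log2(value + 1) with trend and robust moderation, over all 11581 genes and 6 libraries. Alternatives included edgeR 4.0.16, DESeq2 1.42.0 and voom on recovered reads. Lengths came from GENCODE M21 (11571 genes matched) and pseudogene copies from blastn. The script was tested on simulated data. Named by rule, with every library's value, were genes past the threshold and the smallest p of complex II; also by rule, the extremes of each complex, paralogue sets and up to 4 genes of each further list. Other respiratory genes were named after their values were seen, to account for all. The 53 genes and the lists were chosen with earlier results of these data known.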

Additional observations from a re-analysis of the deposited data

How the results depend on the processing

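Complex II had no gene higher in any alternative. Scaling by library size alone left 1 gene lower (Sdhd), 2 higher in complex III with cytochrome c, and a median log2 fold change of 0.03. With the exonic length trend removed, 8 genes were higher and 1 lower, with 3 higher in complex IV, 2 in complex V and a median of 0.045. With the transcript length trend removed, an alternative chosen after seeing the data, 6 were higher and 1 lower, with 2, 3 and 1 higher in complexes III with cytochrome c, IV and V and a median of 0.002. With the replicate number as a block, 9 were higher (176 of all genes, against 246 without it), 3 of them in complex IV, and Cox7b, Cox7c, Uqcrc1 and Atp5l lost their calls. Libraries of the same number did not deviate together (correlations 0.01, -0.04 and -0.07), so the numbers were not taken as pairs. The replicate block with the exonic length trend removed, also chosen after seeing the data, gave 6 higher (57 of all genes), with 2, 3 and 1 by complex and a median of 0.045. Leaving out 1 library gave 6 to 11 higher, 1 to 3 in complex III with cytochrome c, 3 to 4 in complex IV, 1 to 4 in complex V, and a median of 0.128 to 0.226. No called value changed direction in any alternative, and the cause of lost calls was not tested.

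With 3 libraries a group, a small difference may go undetected. At the floor of 3 reads, 1.45 to 3.99 normalized counts, depth limits Uqcrb, Cox6b2 and Cox7a1, the 3 genes with a mean under 50. Counts of genes with near-identical pseudogenes are uncertain: 7 of the 13 that rose (Cycs, Cox6c, Cox7b, Cox7c, Atp5k, Atp5l and Atp5h) and 9 of the 40 others have at least 1.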
